A study of Mus musculus with 6 samples.

Results

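The aminoacyl-tRNA synthetases are the enzymes that join each amino acid to its transfer RNA, and 36 genes for them were taken by symbol from a table of 13490 genes measured in mouse inguinal white adipose tissue. All 36 symbols were found. By the symbol rule, 18 encode cytosolic enzymes, 16 with symbols ending in 2 encode mitochondrial enzymes, and Gars and Kars serve both compartments and were kept apart as shared genes. The tissue, a subcutaneous fat depot, came from 6 wild-type C57BL/6J males aged 15 weeks. Of these, 3 had drunk distilled water and 3 had drunk water with 300 ppb sodium arsenite, a trivalent arsenic salt, over 9 weeks. The labels give 20M mapped reads for each sample. The comparison asks how arsenite exposure changed transcript levels in this depot.

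The deposited table gives 1 mean per group and gene on a count-like abundance scale. It also gives a log2 ratio of arsenite over water and PPEE, the posterior probability that a gene was equally expressed in both groups. Its control column was taken to be the water group and its treatment column the arsenite group. Every mean below is the authors' mean over 3 mice; values of single mice were not analysed here, so no SD is given and it cannot be said which mice were high or low. Genes with a PPEE of 0.05 or less count as called. In bulk tissue, fewer cells of a type and less RNA per cell cannot be told apart.

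Protein synthesis needs a charged tRNA for every amino acid, and each synthetase recognises 1 amino acid and its tRNAs. The cytosolic set serves the translation of nuclear messages, and several of its enzymes sit together in the multisynthetase complex, held by scaffold proteins. The mitochondrial set is encoded in the nucleus, imported, and serves the few proteins translated inside the organelle, which are core subunits of the respiratory chain. In mouse cells, genes of the cytosolic set are known targets of ATF4, the transcription factor of the integrated stress response, which binds an element of the form TGATGNAA. Fat that turns on heat production gains mitochondria, and inguinal fat is a depot known to do so.

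Proximal promoters were available for 27 of the 36 genes, each running from 250 bases before to 50 bases after the annotated start (RefSeq, GRCm38.p6). The letters TGATGNAA, read on both strands, occurred in 4 of 11 cytosolic, 1 of 2 shared and 0 of 14 mitochondrial promoters, against 4.06% of 27025 promoters of all genes and 2.29% of the 10655 that belong to genes of the table. A match from each of these 5 genes is shown to set the cytosolic promoters beside the ATF4 response described further on. Aars holds a further match 112 bases upstream, which is not shown. Capitals mark the match and lower case the 10 bases on each side, 5′ to 3′ in the direction of the gene. A match on the other strand appears as its reverse complement.
Aars, 9 bases downstream (chr8:111033841-111033868, plus strand): gcgggtcactTTTCATCAgagcgctctg
Gars, 30 bases upstream (chr6:55037961-55037988, plus strand): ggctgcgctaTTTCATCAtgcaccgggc
Iars, 7 bases downstream (chr13:49682127-49682154, plus strand): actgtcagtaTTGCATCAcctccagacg
Tars, 15 bases upstream (chr15:11399656-11399683, minus strand): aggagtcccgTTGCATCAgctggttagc
Yars, 3 bases downstream (chr4:129189896-129189923, plus strand): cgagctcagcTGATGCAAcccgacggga

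Under arsenite all 5 of these genes had lower means as deposited, to unequal degrees. Aars, the alanyl enzyme, had means of 718 under water and 688 under arsenite. Iars, the isoleucyl enzyme, had 312 and 286, Tars, the threonyl enzyme, 458 and 418, and Yars, the tyrosyl enzyme, 391 and 353. Gars, the glycyl enzyme, had 1614 and 1273, the widest gap of the 5. A match describes letters only and was not tested as a binding site.

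No synthetase gene was called in either direction, and the set leaned slightly lower under arsenite, more so in its mitochondrial part. At a PPEE of at most 0.05, 0 of 36 members were called, against 99 of all 13490 genes (0.734%; 0.348% lower and 0.385% higher). At bounds of 0.01 and 0.1 the count was also 0, against 0.467% and 0.882% of all genes. In the authors' deposited table only Farsb and Yars2 had a PPEE below 0.9, at 0.778 and 0.877, against 5.00% of all genes. Of the 36 members, 31 had a deposited log2 ratio below 0, or 86.1%, against 54.5% of all genes, but this count depended on scaling. It was 23 of 36 under quantile normalization (50.1% of all genes), 27 under upper-quartile scaling (46.5%) and 15 with the group totals set equal (33.8%). Small ratios were common: 16 of 36 members had an absolute log2 ratio under 0.1, against 26.4% of all genes. With a log2 ratio of -0.5 or less there were 4 members (Cars2, Farsb, Yars2 and Lars2), against 8.22% of all genes, and with 0.5 or more there were 0, against 7.07%.

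**Figure D1:**
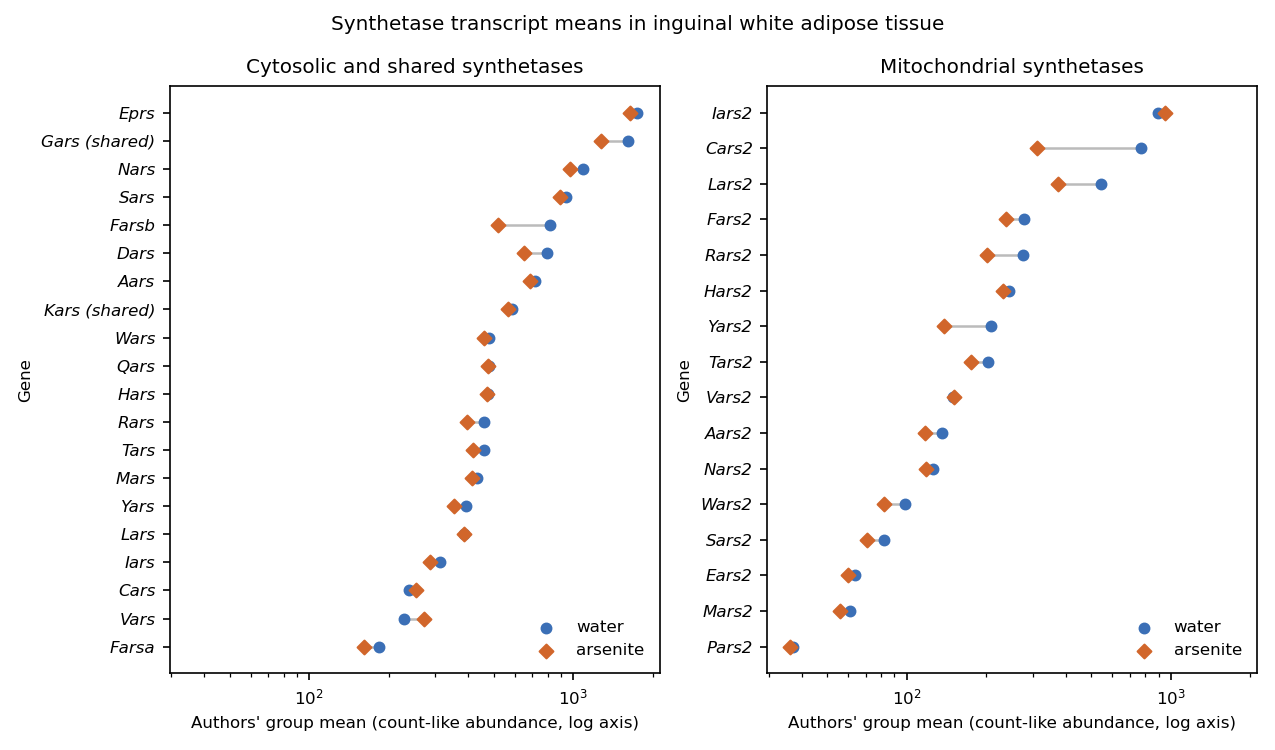
Authors' mean abundance of each synthetase gene under water (circles) and arsenite (diamonds), on a log axis, with a line joining the 2 means of a gene; no error is available. Most pairs nearly coincide, and the longest lines belong to Cars2 (775 and 311), Farsb (819 and 519) and Yars2 (209 and 139).

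The cytosolic synthetases were nearly level as a class. Of the 18, 15 had log2 ratios below 0 as deposited, with a median of -0.08, against -0.03 over all genes. Under quantile normalization 8 of 18 were below 0 and the median was 0.0017, and with equal totals 5 were below 0 and the median was 0.08, when the median of all genes was itself 0.12. Their summed means were 10637 under water and 9714 under arsenite, 8.68% lower, while the sum over all genes was 10.4% lower.

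Among the enzymes of the multisynthetase complex, Eprs, which charges both glutamate and proline, had the highest means, 1749 and 1643. Dars, the aspartyl enzyme, had 797 and 652, and Rars, the arginyl enzyme, 461 and 398, for which the authors' deposited table lists log2 ratios of -0.29 and -0.21, the lowest of the complex. Qars, the glutaminyl enzyme, had 479 and 476, Lars, the leucyl enzyme and a leucine sensor for mTORC1 in human cells, 385 and 386, and Mars, the methionyl enzyme, 431 and 413. The 8 complex enzymes, Iars and the shared Kars among them, ranged in the authors' deposited table from -0.29 to 0.0023, with a median of -0.08 and 5 of 8 within 0.1 of 0. Their median was 0.0091 under quantile normalization and 0.08 with equal totals. The 12 other cytosolic and shared enzymes had a wider range, from -0.66 to 0.26, and a median of -0.10.

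Phenylalanyl-tRNA synthetase is built from the products of Farsa and Farsb, and its subunit genes differed. Farsb, the beta subunit, had means of 819 and 519, 36.7% lower under arsenite. Its log2 ratio in the authors' deposited table, -0.66, and its PPEE were the lowest of the 20 cytosolic and shared genes, and 4.34% of all genes had a lower ratio than Farsb. Farsa, the alpha subunit, had 184 and 161, and the authors' deposited table lists its log2 ratio as -0.19. Per kilobase of deposited gene length, the level of Farsb was 3.86 times that of Farsa under water and 2.80 times under arsenite. Exons of Sgpp2 on the other strand cover 9.47% of the exonic bases of Farsb, and Sgpp2 had means of 28.5 and 23.6.

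Of the remaining cytosolic enzymes, 2 had higher means under arsenite. Vars, the valyl enzyme, had 228 and 273, and its log2 ratio in the authors' deposited table, 0.26, was the highest of all 36 members. Cars, the cysteinyl enzyme, had 239 and 253. Both stayed above 0 under the 3 other scalings and after removal of the length trend. Nars, the asparaginyl enzyme, had 1093 and 975, and Sars, the seryl enzyme, 938 and 891. Wars, the tryptophanyl enzyme, which interferon induces, had 481 and 460. Hars, the histidyl enzyme, had 475 and 470. In the authors' deposited table, none of these 6 genes had a PPEE below 0.99.

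The shared genes were both lower as deposited, to unequal degrees. Gars, mutated in an inherited neuropathy modelled in mice, was the most abundant synthetase per kilobase in both groups, at 675 and 533 per kilobase. Its log2 ratio in the authors' deposited table was -0.34, against -0.18 to -0.33 under the other scalings and after removal of a length trend. Kars, the lysyl enzyme, had means of 587 and 566, and its log2 ratio in the authors' deposited table, -0.05, turned positive under quantile normalization, upper-quartile scaling and equal totals.

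The mitochondrial synthetases lay lower than the cytosolic ones, and Cars2 stood apart among them. Of the 16, 14 had log2 ratios below 0 as deposited, with a median of -0.21, which was -0.17 relative to the median of all genes. The class median minus the cytosolic median was -0.12 as deposited, -0.20 under quantile normalization, -0.12 under upper-quartile scaling and with equal totals, and -0.07 after removal of the length trend. Upper-quartile scaling and equal totals multiply a whole group by the same factor, so they could hardly change that difference. Quantile normalization and removal of the length trend could change it, and its sign held under both. With equal totals 9 of the 16 were below 0. No test was made between the classes, because genes of a class are not replicates. Without the 4 members at -0.5 or less, a restriction chosen after seeing the data, the difference was -0.05.

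**Figure D2:**
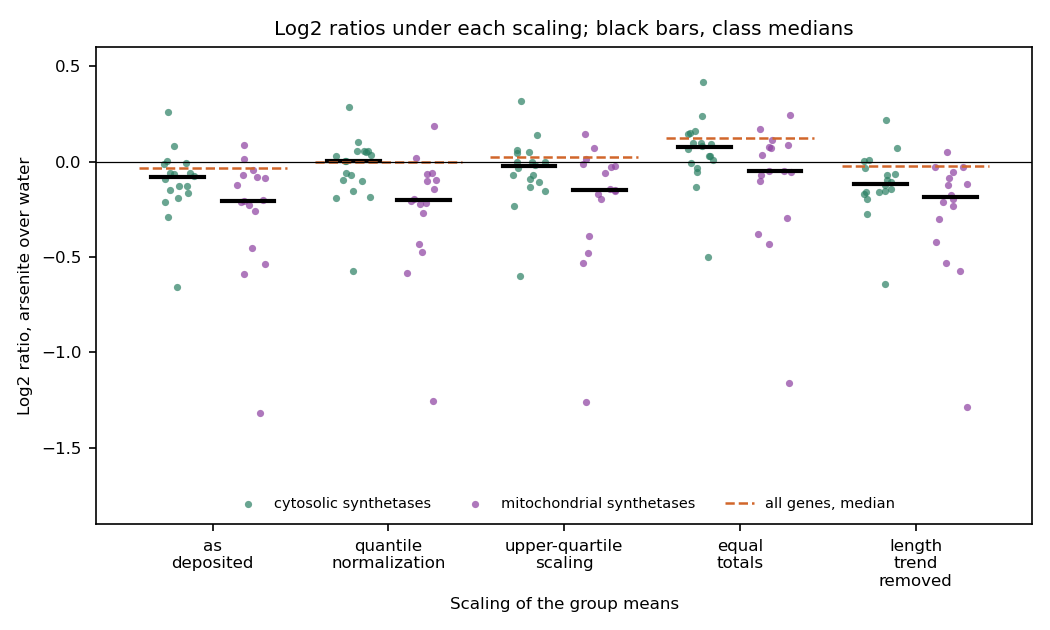
Log2 ratio of arsenite over water for each cytosolic and mitochondrial synthetase gene (points) as deposited and under 4 alternatives; black bars are class medians and dashed lines the median of all genes. The mitochondrial bar lies below the cytosolic bar in each setting, while both move with the scaling, from -0.08 and -0.21 as deposited to 0.08 and -0.05 with equal totals. Upper-quartile scaling and equal totals shift both bars nearly alike, so the distance between them could hardly change there.

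Cars2 encodes the mitochondrial cysteinyl enzyme, which in mouse cells also makes cysteine persulfides. Its means were 775 under water and 311 under arsenite, 2.50-fold lower. For this gene the authors' deposited table lists -1.32 as the log2 ratio and 0.984 as the PPEE. It was not called, and 0.556% of all genes had a lower ratio. A high PPEE at such a ratio was common: of 178 genes whose log2 ratio in the authors' deposited table was -1 or less, 5 were called and 138 had a PPEE above 0.9. The spread between mice behind these values could not be examined. As deposited, under the other scalings and with the length trend removed, the Cars2 ratio lay between -1.32 and -1.16. The gene lies on chromosome 8 (11514017 to 11550781, GRCm38), and exons of the oppositely oriented Naxd, listed as Carkd, cover 5.83% of its exonic bases. Naxd had means of 415 and 394. Cars2 made up 18.5% of the summed mitochondrial synthetase means under water and 9.37% under arsenite, and 53.7% of the difference between the class sums of 4181 and 3315. The sum was 20.7% lower with Cars2 and 11.8% lower without it.

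The Cars2 promoter is printed because this gene had the lowest ratio of the set. It held none of 4 motifs searched on both strands, which were the ATF4 element, the consensus motif of NRF1, a factor of nuclear genes for mitochondrial proteins, the ETS motif CCGGAAGT and the estrogen-related receptor motif TNAAGGTCA. The absence of these letters from this window says nothing about the factors.
Cars2 (chr8:11550722-11551021, minus strand): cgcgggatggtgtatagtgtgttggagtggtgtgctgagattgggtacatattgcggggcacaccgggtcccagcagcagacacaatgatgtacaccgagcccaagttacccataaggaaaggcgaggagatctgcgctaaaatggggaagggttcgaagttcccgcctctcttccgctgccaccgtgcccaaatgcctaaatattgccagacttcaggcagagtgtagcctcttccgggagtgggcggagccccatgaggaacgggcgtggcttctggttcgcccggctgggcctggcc
Over all members, the NRF1 motif was found in 5 of 27 promoters (4.78% of all promoters and 10.1% of those of the table's genes). The ETS motif was in 3 (4.00% and 8.00%) and the receptor motif in 0 (1.26% and 0.760%).

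The next lowest mitochondrial genes were Yars2, Lars2 and Rars2, the tyrosyl, leucyl and arginyl enzymes. Yars2 had means of 209 and 139, Lars2 544 and 375, and Rars2 277 and 202. In the authors' deposited table their log2 ratios were -0.59, -0.54 and -0.45, and they stayed below 0 under each scaling. Variants of the human counterparts cause disease: a myopathy with sideroblastic anaemia for Yars2, hearing loss with ovarian failure for Lars2, and a form of pontocerebellar hypoplasia for Rars2.

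A middle group had modestly lower means. Wars2 had means of 98.4 and 82.3, Fars2 278 and 237, Tars2 204 and 176, Aars2 136 and 118 and Sars2 81.9 and 71.0, for the tryptophanyl, phenylalanyl, threonyl, alanyl and seryl enzymes. In the authors' deposited table these log2 ratios ran from -0.26 to -0.20. Fars2 overlaps exons of Lyrm4 and Nrn1 on the other strand over 10.7% of its exonic bases, and Nrn1 had means of 78.5 and 36.8. Strand use in the authors' counting is not given in the sources used here, so their reads may not be separable.

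The other mitochondrial genes were close to level. Mars2 had 61.0 and 56.0, Ears2 63.8 and 60.01, Nars2 126 and 119, Hars2 244 and 232, and Pars2 37.2 and 36.1, for the methionyl, glutamyl, asparaginyl, histidyl and prolyl enzymes. Vars2, the valyl enzyme, had 149 and 151. Iars2, the isoleucyl enzyme, had the highest means of the class in both groups, 897 and 951. Its log2 ratio in the authors' deposited table, 0.08, stayed above 0 under each scaling. Exons of other-strand genes cover 24.2% of the exonic bases of Iars2, and Rab3gap2, which is among them, had means of 431 and 481.

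**Figure D3:**
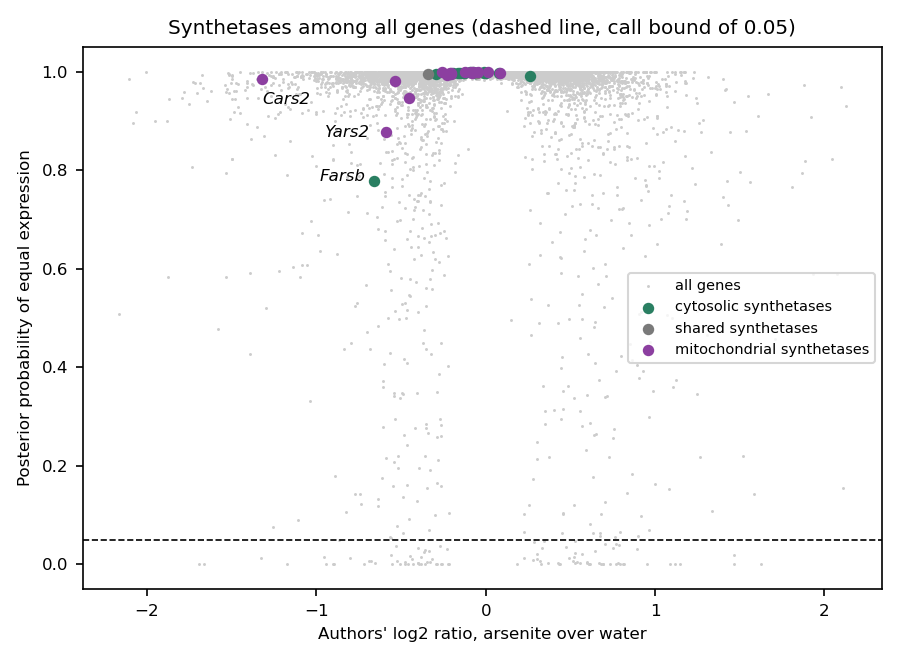
Deposited log2 ratio (horizontal) against the posterior probability of equal expression (vertical) for all genes (grey; 16 with an absolute ratio of 2.2 or more are not drawn) and the 36 synthetase genes (coloured by class). All 36 lie above the dashed call bound of 0.05, with Farsb (0.778) and Yars2 (0.877) nearest to it and Cars2 at 0.984.

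For 15 amino acid pairings a cytosolic and a mitochondrial gene could be set side by side, Eprs standing for both glutamate and proline. The mitochondrial gene had the lower log2 ratio in 11 of 15, with a median difference of -0.13, and since all pairs come from the same 2 group means they are not independent. A factor that multiplies a whole group moves both genes of a pair alike. The largest differences, mitochondrial minus cytosolic, were -1.40 for cysteine, -0.54 for leucine and -0.44 for tyrosine. Isoleucine went the other way, with Iars2 0.21 above Iars. Within the pair of alanine enzymes and that of histidine enzymes the differences were -0.15 and -0.06.

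Levels per kilobase compared the transcripts of the cytosolic and mitochondrial genes within each of the 15 pairings. The cytosolic gene was the more abundant in 12 of 15 pairings under water and 13 under arsenite. Over all 15 pairings, the median level of the cytosolic gene relative to the mitochondrial one was 2.99 and 3.12 times. Cysteine and isoleucine were exceptions in both groups. Cars2 was at 5.19 times the level of Cars under water and 1.96 times under arsenite, and Iars2 at 3.57 and 4.13 times the level of Iars. For leucine, Lars2 was at 1.40 times the level of Lars under water and 0.962 times under arsenite, which accounts for the change in count. At the other end, Eprs was at 22.3 and 21.6 times the level of Pars2. In the order of all 36 genes by level per kilobase, Cars2 was at position 2 under water (415) and 13 under arsenite (166), the largest shift of any member, while Gars was at 1 and Pars2 at 36 in both. With no spread between mice, it cannot be said which neighbours in that order differ.

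**Figure D4:**
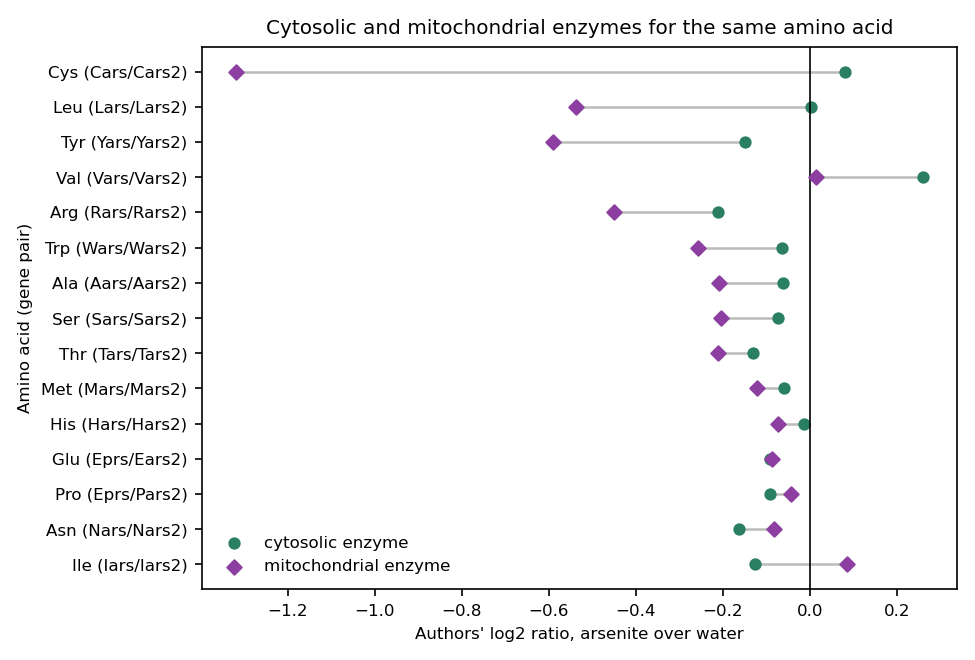
Deposited log2 ratios of the cytosolic (circles) and mitochondrial (diamonds) enzyme genes for each amino acid, joined by a line and ordered by their difference. The diamond lies left of the circle in 11 of 15 pairings, farthest for cysteine (-1.40), and right of it for isoleucine (0.21).

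Structural class did not sort the genes into called and uncalled, since none was called. Synthetases fall into classes I and II by the fold of the catalytic domain. All 17 class II members had ratios below 0 as deposited (median -0.16), against 14 of 19 class I members (median -0.09). Under quantile normalization both medians were -0.10, and with equal totals they were -0.0063 and 0.07.

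The factors that work beside the synthetases also held no called gene, against 0.734% of all genes. Of 15 scaffold and cytosolic tRNA genes, 12 had ratios below 0 and the median was -0.17 (-0.14 under quantile normalization and -0.02 with equal totals), with 0 called. All 3 scaffolds of the multisynthetase complex had lower means, Aimp1 at 435 and 367, Aimp2 at 224 and 167, and Eef1e1 at 231 and 153. Eef1e1 had the smallest PPEE of this list in the authors' deposited table, 0.658. Pstk, the kinase that prepares serine on the selenocysteine tRNA, had 138 and 93.6.

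Among genes that charge and mature mitochondrial tRNAs, Qrsl1 had the lowest ratio. Mitochondria have no separate glutaminyl enzyme, and the GatCAB amidotransferase instead converts glutamate already joined to the glutamine tRNA. Its catalytic subunit gene Qrsl1 had means of 144 and 92.3. In the authors' deposited table its log2 ratio was -0.64 and its PPEE 0.132, not called but the smallest PPEE among the synthetases and translation lists. Gatb, listed as Pet112, had 281 and 215, and Gatc 276 and 222, so all 3 subunits were lower. Mtfmt, which formylates the initiator methionyl-tRNA, had 118 and 152. In all, 12 of 15 genes of this list were below 0 (median -0.25; -0.10 with equal totals), with 0 called.

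Mitochondrial translation factors lay lower again. Of 10, 9 had ratios below 0 and the median was -0.40 (-0.24 with equal totals), with 0 called. Mrrf, the ribosome recycling factor, had means of 292 and 223, and Guf1, a GTPase of mitochondrial translation, 447 and 287. Tufm, which delivers charged tRNA to the mitochondrial ribosome, had 801 and 590. Its cytosolic counterpart Eef1a1 had 22036 and 21858. The 9 cytosolic elongation and termination genes had a median of -0.14, which was 0.03 under quantile normalization and 0.02 with equal totals, with 0 called; Gspt1, a termination factor, had 1232 and 1082, and Eif5a 3985 and 3161.

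**Figure D5:**
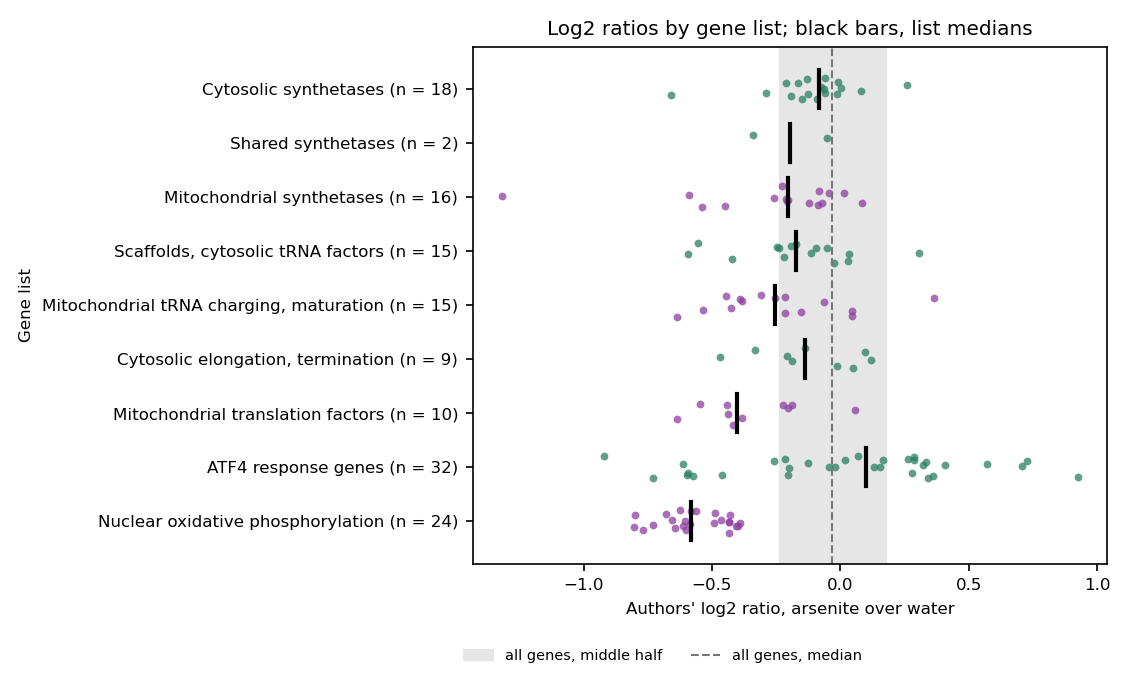
Deposited log2 ratios of the genes in each list (points), with list medians as black bars, the interquartile range of all genes shaded and their median dashed. The cytosolic synthetases centre at -0.08, the mitochondrial synthetases at -0.21, the mitochondrial translation factors at -0.40 and the nuclear respiratory genes at -0.58. The medians of these last 2 lists were -0.35 and -0.36 under quantile normalization, and -0.24 and -0.43 with equal totals.

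The genes of the ATF4 response lay on both sides of 0. Of 32 measured response genes, 18 had ratios above 0 and 14 below, with a median of 0.10 (0.12 under quantile normalization and 0.26 with equal totals). The deposited ratios ran from -0.92 to 0.93. At -0.5 or less there were 6 of the 32, against 8.22% of all genes, and at 0.5 or more there were 4, against 7.07%. Of the 32, 1 was called, against 0.734% of all genes called and 0.385% called higher. Pck2, mitochondrial phosphoenolpyruvate carboxykinase, rose from a mean of 104 to 155. Its PPEE in the authors' deposited table was 0.0202 and its log2 ratio 0.57. Atf4 itself had 1626 and 1417, Ddit3, the CHOP gene, 321 and 268, and Asns, asparagine synthetase and a classical target, 577 and 606. The 11 synthetases listed as ATF4 targets had a median ratio of -0.09 as deposited, with 10 below 0. That median was 0.00029 under quantile normalization and 0.07 with equal totals, so its sign depended on scaling. The 9 other cytosolic and shared genes had a deposited median of -0.05.

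Some members share their promoter region with another gene. Within 1000 bases upstream and on the other strand, 8 of the 36 had the start of another protein-coding gene, as had 14.3% of 12820 genes of the table matched to GENCODE M21. Hars and Hars2, both members, start 26 bases apart, and the authors' deposited table lists their log2 ratios as -0.01 and -0.07. Their exons overlap on opposite strands, over 7.97% of the exonic bases of Hars and 4.56% of those of Hars2. With strand use not given, the reads of Hars and Hars2 may not be separable there. Rars2 starts 13 bases from Orc3, an origin recognition subunit gene, whose means were 671 and 498. For Rars2 and Orc3, the authors' deposited table lists log2 ratios of -0.45 and -0.43. Sars2 faces Mrps12, a mitochondrial ribosomal protein gene with 240 and 181, and Fars2 faces Lyrm4, with 137 and 106. The remaining neighbours, Terf2ip of Kars, Wdr25 of Wars and S100pbp of Yars, had log2 ratios in the authors' deposited table between -0.03 and 0.23. The Rars2 promoter is printed because the window holds the starts of both genes, with its ETS match in capitals.
Rars2 (chr4:34614707-34615006, plus strand): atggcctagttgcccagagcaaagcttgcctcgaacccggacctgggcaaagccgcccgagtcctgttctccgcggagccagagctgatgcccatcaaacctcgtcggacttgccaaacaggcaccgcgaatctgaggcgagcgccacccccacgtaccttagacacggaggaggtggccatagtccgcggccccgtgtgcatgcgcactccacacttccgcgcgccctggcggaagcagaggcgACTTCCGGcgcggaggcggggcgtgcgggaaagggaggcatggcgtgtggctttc

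Sequence shared with other genes was limited. Of the 50-base stretches in each member's GENCODE M21 transcripts, more than 5% occurred in another gene for 2 members, Aars (13.5%, in Exosc6) and Iars (7.15%, in Gm4849), and at most 1.24% for the other 34. Exons of genes on the other strand cover part of the exonic bases of 13 members. The deposited annotation matched the symbol rule in most cases. A mitochondrial component term was attached to 14 of 16 mitochondrial genes, Aars2 and Vars2 being without one, to both shared genes, and to 1 of 18 cytosolic genes, Qars. All 36 carried the tRNA aminoacylation term, as did 8 other genes. Of these, Tarsl2, a further threonyl enzyme, had means of 229 and 203.

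Markers of the tissue and of other cells differed between the same means. Adipocyte markers were all present, with 3 of 8 below 0, and their summed means were 315166 and 319191, most of them from Fabp4 (223241 and 218556). Lipe had 8082 and 10364, and Plin1 6184 and 7389. The 24 nuclear oxidative phosphorylation genes all had ratios below 0, and their sum was 30.5% lower; Sdhd had 3442 and 1978 and Uqcrc2 5426 and 3275. All 7 beige markers were below 0, with a sum 59.5% lower, Dio2 at 3332 and 1035 and Elovl3 at 2832 and 658. Of 9 measured skeletal muscle markers 7 were below 0, and their sum went from 203333 to 154192, so muscle RNA was present in both groups. Endothelial markers were above 0 in 7 of 8 genes, with sums of 2942 and 4884. Macrophage markers (6 of 8 below 0), fibroblast and progenitor markers (2 of 8 below 0) and the 4 measured T and B cell markers (all below 0, sums 85.1 and 42.9) completed the set, and 0 of these markers was called or listed at 0 under water. The part of these cell types in the synthetase values was not tested.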

How the data were processed

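Per the labels, RNA from inguinal fat of 6 mice (3 per group, grouped by the treatment stated for each sample) was purified with a lipid tissue kit, and reads were aligned to GRCm38. Bowtie2, HISAT and RSEM are listed, without roles or versions, per the submitters' processing notes. The authors deposited a group mean of an abundance signal for 13490 genes; for scaling between libraries and the software of the comparison, the sources used here give nothing. The deposited log2 ratio equals that of the means after 0.574 is added to each, within 6.48e-08. PPEE, a term of the EBSeq package, is a posterior probability and not a p-value. Depth per library is known only from the labels' 20M mapped reads, so no interval could be given.

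Ratios, counts and medians were computed from these columns in Python 3.11.15 with pandas 2.3.3, numpy 2.4.6, scipy 1.17.1 and statsmodels 0.14.6. Levels between genes were divided by the deposited gene length. The length trend was removed by lowess with a span of 0.3; the steps were tested on simulated data. Identifiers of 13463 genes matched RefSeq annotation. Members and lists were chosen with earlier results of these data known. Every member was named. Of other lists, called genes or else the 2 of smallest PPEE were named, with the 3 amino acid pairs that differed most. The pairs for isoleucine, alanine, histidine and proline were named as well, outside that rule. Chosen after seeing values, outside that rule, were Aimp1, Aimp2, Gatc, Mtfmt, Tufm, Eef1a1, Atf4, Ddit3, Asns, Fabp4, Tarsl2 and the overlapping or facing genes. Cell-type lists other than adipocyte, beige and respiratory genes are given by their counts and sums. Bounds of 0.9 and 0.99 on PPEE and of 0.1, 0.5 and -1 on ratios were likewise set then.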

Additional observations from a re-analysis of the deposited data

How the results depend on the processing

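Of 433 recomputed values, 359 moved by less than 0.1 on the log2 scale (or 1.5-fold for counts). Of the 74 that moved, 58 did so with equal totals, under which the median ratio was 0.0752 for cytosolic and -0.0488 for mitochondrial synthetases and 0.12 for all genes. Quantile normalization moved 12, and turned 8 member ratios positive (Aars, Eprs, Hars, Kars, Mars, Qars, Sars and Wars). Upper-quartile scaling changed the sign of 4 (Hars, Kars, Pars2 and Qars), length adjustment that of 4 (Hars, Lars, Qars and Vars2), and equal totals that of 16. Added constants of 0.1 or 5, and a minimum average mean of 50, which left out Pars2, changed the sign of 0. The count of called members was 0 at PPEE bounds of 0.01, 0.05 and 0.1. Counting Gars and Kars with either class left both medians as they were. Replicates could not be left out in turn, since the values used are group means. No paired analysis was possible because the labels give the groups no shared replicate numbers and the values used are group means.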
